A study of Mus musculus with 9 samples.

Results

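Subcutaneous fat of homozygous endothelial AGO1 knockout mice, labelled Homo KO, was compared with that of wild-type mice, labelled WT. The comparison uses 6 of the 9 RNA sequencing libraries of the series, 3 from each group, chosen by genotype label. The remaining 3 libraries are of mice labelled Hete KO, and they were used to estimate the spread between libraries and to set beside Homo KO. All 9 libraries were made from C57BL/6 mice aged 24 weeks, and the labels name no treatment in any group. The sources used here do not give the promoter that drove deletion in endothelial cells, the deleted exons, the sex, the litters or any sequencing batch. Whole tissue was sequenced, so transcripts of endothelial cells, adipocytes and all other cells were measured together, and fewer cells of a type and less RNA per cell cannot be told apart. The study asked which molecular differences accompany the metabolic phenotype of these mice. The labels do not say whether the replicates of a group are separate mice, so p-values measure the spread between these libraries, which may be partly technical.

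AGO1 is an Argonaute protein, the core of the complex through which a microRNA recognises messenger RNAs. The microRNA pairs through its seed, bases 2 to 8 from its 5′ end, with sites that lie mostly in the part of the transcript after the stop codon, and paired transcripts are destabilised or translated less. Mammals have other Argonaute proteins that load largely the same microRNAs. Endothelial cells line the vessels of fat, carry fatty acids and hormones to adipocytes and exchange growth factors with them.

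The libraries held between 20843427 and 28252001 estimated counts, and 17968 genes passed the filter on low counts. Levels are given as normalized CPM, a gene's counts relative to its library's total after TMM scaling, in the order of replicates 1, 2 and 3. Differences are log2 fold changes of Homo KO minus WT, and so are numbers without a unit in parentheses after levels or given as the value a gene was at. Transcripts of other tissues were unevenly spread over the WT libraries. The share of counts from a list of 18 skeletal muscle genes was 1.30, 1.23 and 0.0135% in WT 1, 2 and 3, but 0.0358, 0.0216 and 0.0109% in Homo KO 1, 2 and 3. Alb, which encodes serum albumin of the liver, had 6.43, 633 and 609 CPM in WT and 21.7, 32.4 and 33.7 in Homo KO. WT 1 thus held muscle but few liver transcripts, WT 3 liver but few muscle transcripts, and WT 2 both. Results that could rest on them are also given without the libraries with muscle transcripts (WT 1, WT 2 and Hete KO 2) or without those with liver transcripts (WT 2 and WT 3). In either case 1 WT library is left, which is assumed to vary like the others. The adipocyte hormone gene Adipoq marks fat, and it was abundant in every library, at 942, 903 and 1517 CPM in WT and 1238, 1494 and 1564 in Homo KO. Homo KO 2 stood apart in the gap between transcript length and effective length, 267 bases against 184 to 199 in the other 8 libraries.

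**Figure D1:**
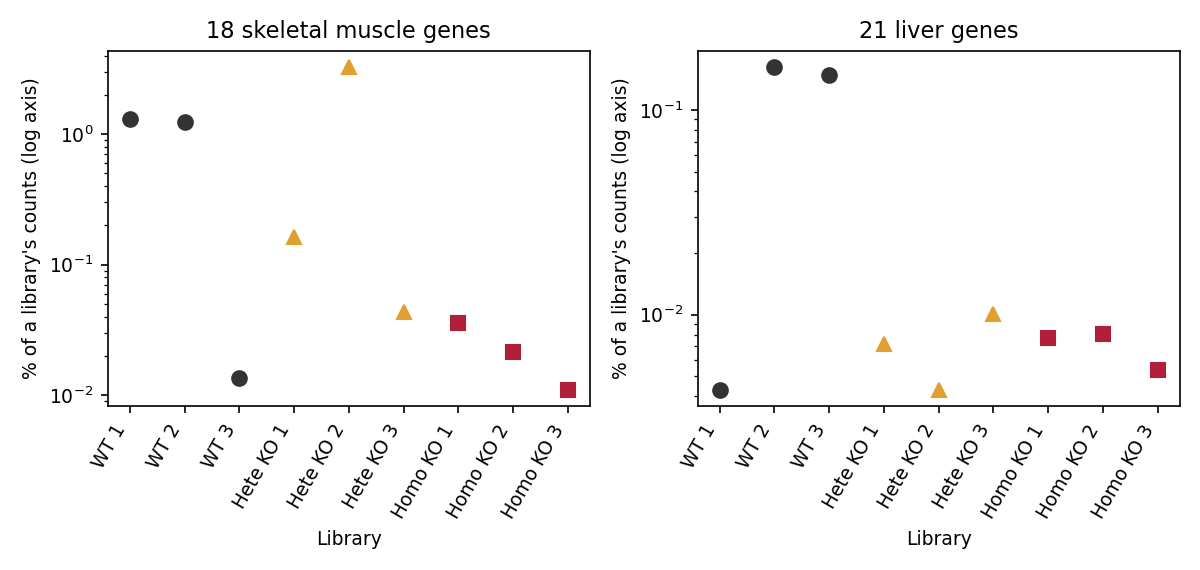
Share of each library's counts taken by 18 skeletal muscle genes (left) and 21 liver genes (right), in % on log axes, with 1 point per library. WT 1, WT 2 and Hete KO 2 stand above 1% for muscle, WT 2 and WT 3 stand at 0.163 and 0.148% for liver, and the 3 Homo KO libraries are low for both.

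Ago1, the targeted gene (chr4:126435012-126468583, minus strand, mm10), had 69.9, 63.8 and 63.4 CPM in WT and 62.2, 58.6 and 25.8 in Homo KO. All Homo KO libraries lay below all WT libraries, but Homo KO 1 and 2 only by a little, and Homo KO 3 alone was far below. This gave a log2 fold change of -0.43 (SE 0.265, edgeR adjusted p = 0.441) and did not pass, and without Homo KO 3 it was -0.11. The summed count of the gene includes exons outside a deletion and the Ago1 transcripts of cells other than endothelial cells, so it is a weak check of the genotype labels. The other Argonaute genes had log2 fold changes nearer to 0 in this fit, and none passed. Ago2, the Argonaute that can itself cut a fully paired target, had 257, 246 and 253 CPM in WT and 227, 230.1 and 238 in Homo KO, a log2 fold change of -0.12. Its groups did not overlap, yet the log2 fold change was 0.14 with an offset for transcript length. Ago3 and Ago4, which lie beside Ago1 on chromosome 4, overlapped between the groups. Ago3 had 90.9, 63.2 and 84.9 CPM in WT and 85.2, 87.6 and 79.8 in Homo KO (0.08). With an offset for transcript length Ago3 was at -0.45. Ago4 had 15.7, 15.4 and 16.0 CPM in WT and 14.7, 14.4 and 16.3 in Homo KO. Of the 16 genes of the microRNA machinery, 1 was higher and 0 lower at an unadjusted p under 0.05. Over all tested genes 7.75% were higher and 8.68% lower. The median log2 fold change of the 16 was 0.06, or -0.16 with the log2 shares of muscle and liver genes as covariates. The 1 higher gene was Tnrc6c, a scaffold of the silencing complex. It had 76.5, 72.2 and 72.9 CPM in WT and 91.9, 90.9 and 88.3 in Homo KO (0.29, edgeR adjusted p = 0.217).

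The transcripts that microRNAs of endothelium and fat can pair with were compared as groups, because AGO1 acts through such pairing. The 7 mature sequences below, from the RefSeq table of build GRCm38.p6, show in capitals the seed that defined each group, and no 2 of them share a seed.
mmu-miR-126a-3p: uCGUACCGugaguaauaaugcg
mmu-let-7a-5p: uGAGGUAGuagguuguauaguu
mmu-miR-19b-3p: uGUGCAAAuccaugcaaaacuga
mmu-miR-221-3p: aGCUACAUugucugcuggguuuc
mmu-miR-103-3p: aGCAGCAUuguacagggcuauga
mmu-miR-27a-3p: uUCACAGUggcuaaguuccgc
mmu-miR-21a-5p: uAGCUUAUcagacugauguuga
miR-126a-3p, the microRNA most characteristic of endothelial cells, is encoded on the plus strand at chr2:26591402-26591423, within the endothelial gene Egfl7, and miR-103-3p has 1 of its 2 copies at chr2:131288103-131288125. A site was counted where the part after the stop codon held the reverse complement of the seed followed by A. Over the 14434 genes with such a part the median log2 fold change was -0.02. It was 0.00 for the 9 genes with a miR-126a-3p site, -0.03 for 458 genes of let-7a-5p and 0.02 for 753 genes of miR-19b-3p. For miR-27a-3p it was 0.03 over 854 genes, for miR-103-3p 0.04 over 486, for miR-221-3p 0.07 over 509 and for miR-21a-5p 0.09 over 296. Only the let-7a-5p median lay below that of all genes, the other medians lay above it, and none was beyond 0.09. The 11691 genes with none of these sites had a median of -0.03. Genes with sites also have long parts after the stop codon, with median lengths of 1648 to 2869 bases against 983 over all genes. Without regard to sites, the 7222 genes with the longer parts had a median of 0.01, and the 7212 with the shorter ones -0.05.

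Across all genes, the difference between Homo KO and WT was spread over many transcripts, and none passed alone. By edgeR's quasi-likelihood test 0 of 17968 genes were called higher (0%) and 0 lower (0%) after Benjamini-Hochberg adjustment, with a smallest adjusted p of 0.0920. At an unadjusted p under 0.05, 1392 genes (7.75%) were higher and 1560 (8.68%) lower. In 1950 genes (10.9%) every Homo KO library lay above every WT library, and in 2016 (11.2%) every one lay below. With 3 libraries a group and no difference, 10% of genes would show no overlap by chance, counting both directions. DESeq2, run on the same counts, gave an adjusted p to 19052 genes and called 271 (1.42%) higher and 362 (1.9%) lower. Of these 633 genes, edgeR had tested 600, and in 539 the groups did not overlap. The median log2 fold change over all tested genes was -0.01. The count of 0 rested in part on single libraries, since 19 genes were called higher and 134 lower by edgeR when WT 1 was left out, and 3 higher and 38 lower without the 3 libraries with muscle transcripts. In what follows, "higher" and "lower" describe levels in Homo KO relative to WT, and no gene so described passed edgeR's test. In counts over gene lists the words mean an unadjusted p under 0.05.

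**Figure D2:**
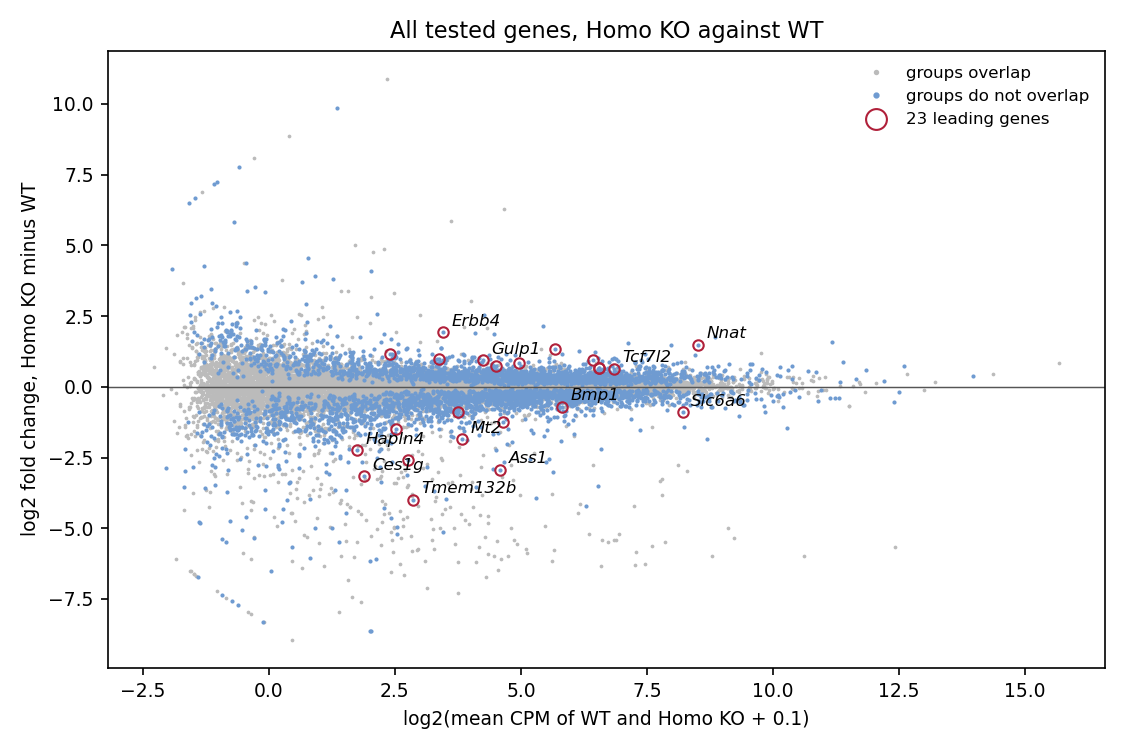
Log2 fold change of Homo KO minus WT (vertical axis) against log2 of the mean CPM plus 0.1 (horizontal axis), with 1 point for each of the 17968 tested genes. Blue points are genes whose 3 Homo KO and 3 WT libraries do not overlap, and of the red circles, which mark the 23 leading genes, 12 lie above 0 and 11 below.

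The 23 leading genes described here, chosen by smallest p, were 12 higher and 11 lower in Homo KO, taken among genes whose groups did not overlap, so their separation was a condition of the choice. Their adjusted p by edgeR ran from 0.0920 to 0.154. DESeq2 called all 23, with adjusted p from 7.79e-19 to 0.00112. All 23 kept their direction under every alternative run, including those that left out the libraries with muscle or liver transcripts. Because their groups did not overlap by choice, leaving out libraries could hardly turn a direction, so the kept direction adds little there.

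Among the lower genes, Ass1 came first. It encodes argininosuccinate synthase, which makes the precursor of arginine from citrulline and so recycles the substrate of nitric oxide synthase (chr2:31470207-31520672, plus strand). Ass1 had 36.2, 48.0 and 43.3 CPM in WT and 6.34, 4.71 and 5.71 in Homo KO, a log2 fold change of -2.93 (SE 0.330, edgeR adjusted p = 0.0920). WT 1, the WT library with few liver transcripts, was the lowest of the 3 but far above every Homo KO library, and the log2 fold change was -2.70 without the libraries with liver transcripts. Mt2 encodes a metallothionein, a small cysteine-rich protein that binds zinc and copper (chr8:94172664-94173568, plus strand). It had 21.4, 19.4 and 26.1 CPM in WT and 6.98, 5.09 and 6.41 in Homo KO (-1.85, SE 0.275, edgeR adjusted p = 0.126), so each Homo KO library was below each WT library by a wide margin. Its neighbour Mt1, chosen after its values were seen, had 18.6, 22.4 and 24.3 CPM in WT and 8.65, 7.51 and 11.5 in Homo KO (-1.24).

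Genes of the extracellular space and its proteases were also among the 11 lower ones. Hapln4, a link protein that joins hyaluronan and proteoglycans, had 4.43, 6.09 and 5.56 CPM in WT and 1.27, 1.14 and 0.986 in Homo KO (-2.24, SE 0.285). Bmp1, the protease that trims the C-terminal end of procollagens, had 62.1, 71.3 and 75.1 CPM in WT and 44.8, 41.4 and 41.9 in Homo KO (-0.70, SE 0.104). The 2 genes differ in size of effect, and in both the Homo KO libraries sat close together. Dpp4, a surface peptidase that marks progenitors in the connective tissue between fat lobules, had 25.2, 36.2 and 43.5 CPM in WT and 15.8, 12.5 and 16.0 in Homo KO (-1.25). Slc6a6, the taurine transporter and the most abundant of the 11, had 359, 412 and 386 CPM in WT and 244, 211 and 162 in Homo KO (-0.91). In neither did a Homo KO library reach the lowest WT library.

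Tmem132b had the largest fold of the 23, at 13.6, 20.6 and 6.20 CPM in WT and 0.997, 0.618 and 0.904 in Homo KO (-3.99), and its WT libraries varied more among themselves than those of Ass1. It was -2.87 without the libraries with muscle transcripts. Tent5c, a cytoplasmic poly(A) polymerase, had 18.7, 16.7 and 16.5 CPM in WT and 8.15, 9.98 and 9.73 in Homo KO (-0.90). The last 3 of the 11 belong to gene families with near-identical copies, between which the counting may have split reads. They were the histone H2A genes Hist1h2af (-1.48) and Hist1h2ai (-2.60, or -1.68 without the libraries with muscle transcripts) and the carboxylesterase Ces1g, at 4.64, 9.78 and 4.99 CPM in WT and 1.22, 0.428 and 0.493 in Homo KO (-3.17). Ces1d and Ces1f, neighbours of Ces1g on chromosome 8 that were chosen after their values were seen, went the other way. Ces1d, a lipase of the endoplasmic reticulum, had 178, 201 and 280.1 CPM in WT and 361, 514 and 561 in Homo KO (1.12), and Ces1f 26.4, 42.2 and 56.9 CPM in WT and 74.9, 123 and 105 in Homo KO (1.27).

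Among the higher genes, Nnat was the most abundant. It encodes neuronatin, a small membrane protein of the endoplasmic reticulum, and is expressed from the paternal allele only (chr2:157560078-157562522, plus strand). Nnat had 172, 165 and 238 CPM in WT and 442, 513 and 665 in Homo KO, a log2 fold change of 1.49 (SE 0.214, edgeR adjusted p = 0.126). The lowest Homo KO library was far above the highest WT library. Erbb4 encodes a receptor tyrosine kinase for neuregulins, and had 4.51, 5.09 and 3.92 CPM in WT and 11.0, 18.1 and 22.3 in Homo KO (1.93, SE 0.329, edgeR adjusted p = 0.144), but the log2 fold change was 1.08 with an offset for transcript length and 0.88 by limma on log2(TPM + 0.5). Nrg4, an adipocyte-secreted neuregulin that binds this receptor, had 74.8, 75.4 and 101 CPM in WT and 146, 171 and 162 in Homo KO (0.93, edgeR adjusted p = 0.154). In both genes every Homo KO library lay above every WT library, as in 10.9% of all genes, and for Erbb4 this was a condition of the choice. A link between the 2 genes was not tested.

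Of the remaining higher genes, Gulp1, an adaptor for the engulfment of dying cells, had 13.1, 12.7 and 13.1 CPM in WT and 25.9, 22.3 and 26.2 in Homo KO (0.93), with WT libraries almost equal. Tcf7l2, a transcription factor of the Wnt pathway, had 94.8, 85.8 and 89.5 CPM in WT and 132, 144 and 147 in Homo KO (0.65). Negr1, a cell adhesion protein of the neuronal surface, had 26.6, 21.2 and 39.2 CPM in WT and 54.0, 76.0 and 89.1 in Homo KO (1.33). In these 3 genes each Homo KO library lay above the highest WT library by a clear margin. Pcf11, a factor that takes part in pre-mRNA cleavage and in ending transcription, had 82.0, 67.3 and 70.3 CPM in WT and 107, 118 and 119.5 in Homo KO (0.65). The zinc finger gene Tshz2 had 77.7, 63.5 and 75.4 CPM in WT and 108, 114 and 124 in Homo KO (0.67). Lama3, a laminin chain of basement membranes, had 6.47, 6.65 and 7.74 CPM in WT and 15.5, 12.5 and 13.1 in Homo KO (0.98). Slc44a3, of the choline transporter family, was at 0.74 and Rad9b, a relative of a DNA damage checkpoint protein, at 1.14. The KRAB zinc finger genes Zfp970 and Zfp809 were at 0.96 and 0.83. Zfp970 lies in a cluster of close relatives on chromosome 2, and its counts may be shared with them.

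**Figure D3:**
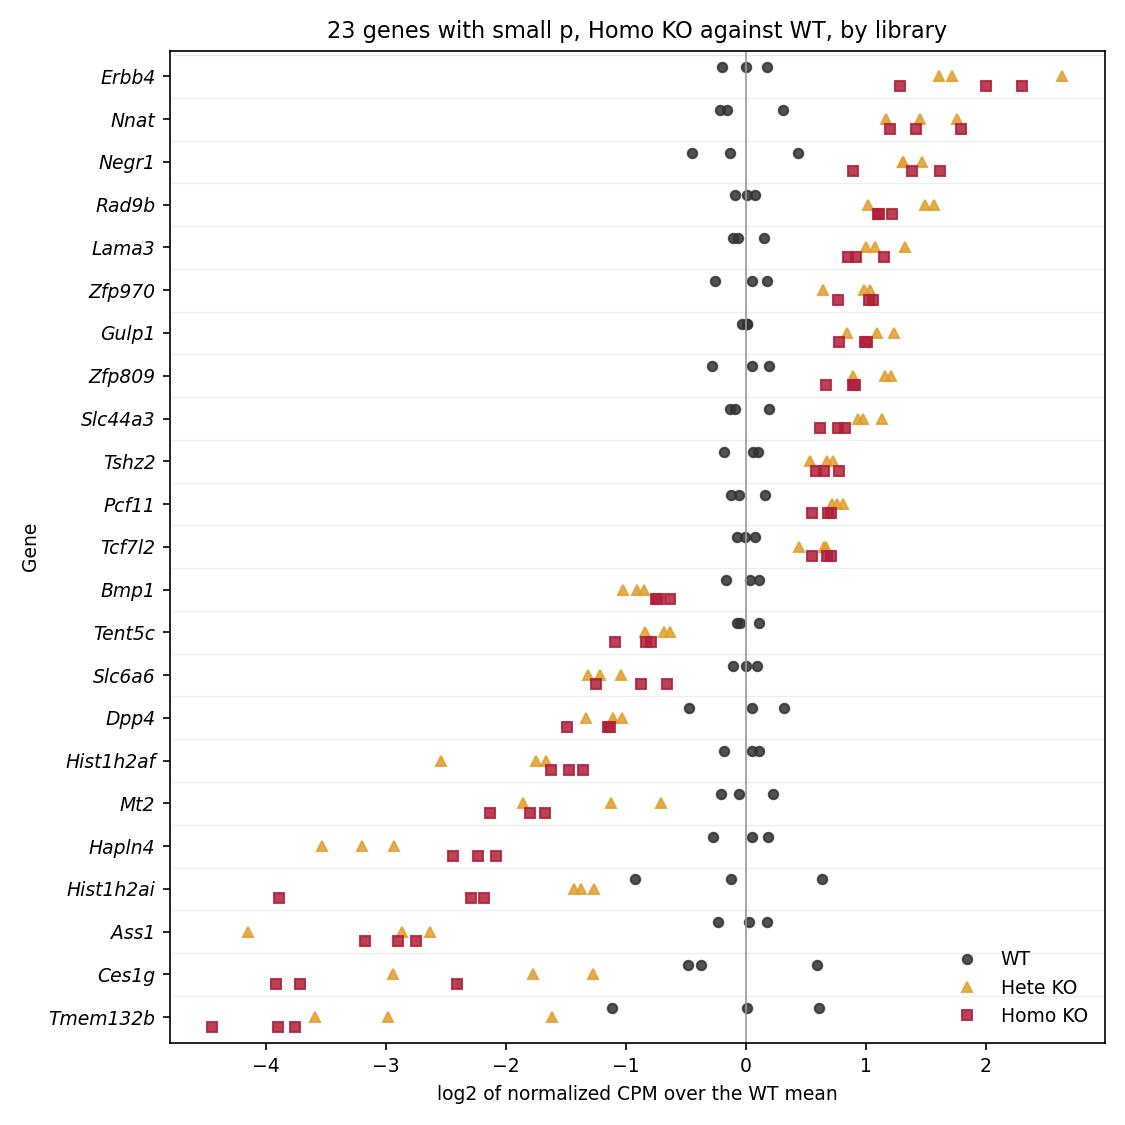
The 23 leading genes in Homo KO against WT, each with its 9 libraries as points on the log2 scale of normalized CPM over the WT mean. WT libraries are black circles around 0, Homo KO libraries are red squares that all lie on 1 side of them, and the Hete KO libraries (orange triangles) lie on the same side as Homo KO for each gene.

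A second choice, by size of fold among protein-coding genes with an unadjusted p under 0.05, no overlap and a mean of at least 1 CPM in each group, gave Ncam2, Zfp965, Vnn1, Adam3, Cfd and Erbb4 as the higher genes. Cfd encodes adipsin, complement factor D, which adipocytes secrete to start the alternative complement pathway. It had 105, 150.2 and 376 CPM in WT and 453, 778 and 894 in Homo KO (1.75, edgeR adjusted p = 0.197) with WT 3 closest to Homo KO, and it was at 0.92 without the libraries with muscle transcripts. C2, a protease of the classical complement pathway chosen after its values were seen, had 26.9, 26.8 and 39.9 CPM in WT and 54.3, 68.3 and 65.2 in Homo KO (1.003). Ncam2, a cell adhesion molecule, had 1.21, 1.40 and 1.11 CPM in WT and 3.71, 8.70 and 9.65 in Homo KO (2.57), and Vnn1, a pantetheinase of coenzyme A breakdown, 6.06, 3.93 and 11.2 CPM in WT and 26.5, 27.2 and 26.1 in Homo KO (1.91). Vnn1 was at 1.25 without the libraries with muscle transcripts. Zfp965 was at 1.86, or 1.10 with the muscle and liver covariates, and Adam3, a gene known from sperm, at 1.74 with at most 6.86 CPM in a library.

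The 6 lower genes of that second choice included 4 muscle genes and a liver gene. Casq1 and Trdn, calcium release proteins of muscle, Des, which encodes desmin, and Mstn, which encodes myostatin, had log2 fold changes of -4.22, -3.93, -3.51 and -3.12. They were at -0.78, -1.07, -0.29 and -0.82 without the libraries with muscle transcripts. Bhmt, a liver enzyme of methionine metabolism, had 1.71 CPM in WT 1, 32.3 CPM in WT 2, 19 CPM in WT 3 and 1.49, 1.33 and 1.27 CPM in Homo KO (-3.69), and -0.33 without the libraries with liver transcripts. Slc38a4, an imprinted amino acid transporter gene, had 15.4, 31.7 and 17.1 CPM in WT and 1.49, 1.62 and 0.945 in Homo KO (-3.98), but also 0.816, 38.9 and 1.99 in Hete KO, where Hete KO 2 is the library with the most muscle transcripts, and it was at -3.66 without the libraries with muscle transcripts, -3.51 without those with liver transcripts and -1.41 with the muscle and liver covariates.

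The metallothionein genes lie side by side on chromosome 8 and were lower together, so their promoters are shown, as RefSeq windows of 300 bases around each start on GRCm38.p6. Capitals mark TGCACNC or TGCGCNC on either strand, the core of the metal response element bound by the zinc sensor MTF-1. The windows are chr8:94178839-94179138 and chr8:94172368-94172667, both on the plus strand.
Mt1: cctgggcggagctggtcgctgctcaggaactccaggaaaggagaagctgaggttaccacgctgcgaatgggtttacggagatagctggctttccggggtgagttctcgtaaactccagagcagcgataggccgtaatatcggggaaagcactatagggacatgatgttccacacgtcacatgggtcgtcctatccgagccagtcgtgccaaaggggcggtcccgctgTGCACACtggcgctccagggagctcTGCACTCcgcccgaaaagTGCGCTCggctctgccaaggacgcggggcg
Mt2: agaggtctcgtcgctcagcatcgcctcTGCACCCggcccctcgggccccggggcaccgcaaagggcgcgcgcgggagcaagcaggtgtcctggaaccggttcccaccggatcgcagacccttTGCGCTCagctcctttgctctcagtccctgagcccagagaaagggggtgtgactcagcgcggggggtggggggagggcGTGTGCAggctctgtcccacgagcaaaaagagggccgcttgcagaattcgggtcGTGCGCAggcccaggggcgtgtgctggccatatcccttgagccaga
The Mt1 window holds 3 matches and the Mt2 window 4. Of 12565 promoters of tested genes, 37.4% hold at least 1 match, and of all 27025 promoters tabulated by RefSeq, 28.2% do, so single matches are frequent. A match describes the sequence and shows no binding.

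**Figure D4:**
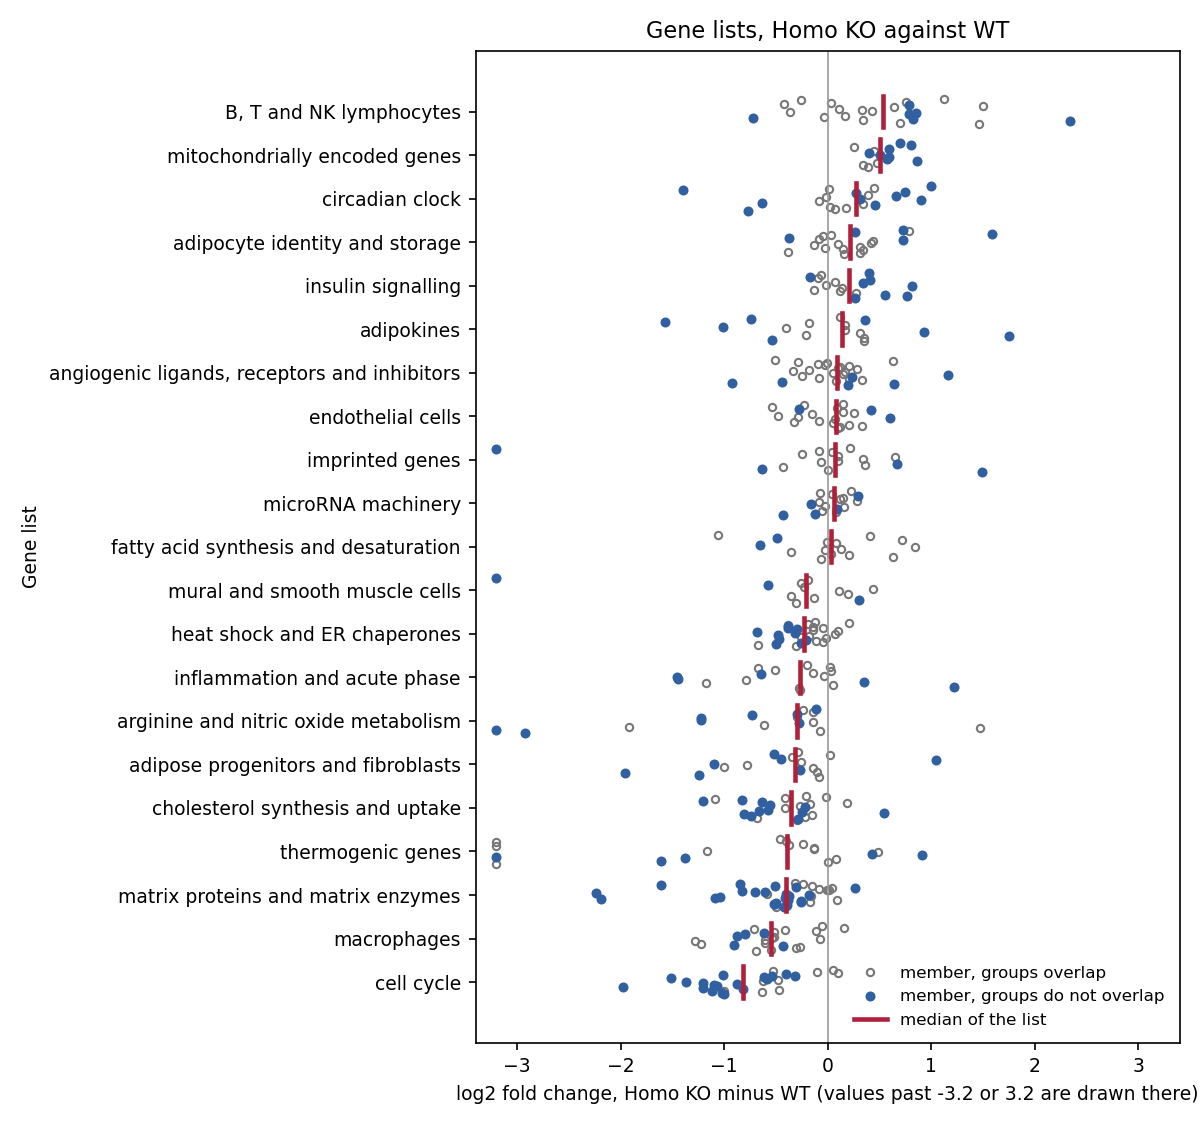
Log2 fold change of Homo KO minus WT for every tested member of 21 gene lists, with filled points for members whose groups do not overlap, open points for the others and a red bar at each list's median. Cell cycle, macrophage and matrix lists lie mostly below 0, mitochondrially encoded genes mostly above, and values past -3.2 or 3.2 are drawn at that limit.

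Gene lists of fat cell function are described by counts and medians, beside 7.75% higher and 8.68% lower over all genes at an unadjusted p under 0.05. Of 20 genes of adipocyte identity and storage, 6 were higher and 1 lower, with a median of 0.21. Pck1, whose enzyme supplies the glycerol backbone of stored fat, had 635, 1367 and 1468 CPM in WT and 2575, 3987 and 3868 in Homo KO (1.59, edgeR adjusted p = 0.154), and even its lowest Homo KO library exceeded every WT library. Pnpla2, which encodes adipose triglyceride lipase, had 780.3, 903 and 1312 CPM in WT and 1379, 1712 and 1866 in Homo KO (0.73). Car3, an abundant carbonic anhydrase of fat and muscle, had 5086, 3036 and 5836 CPM in WT and 5863, 7778 and 9482 in Homo KO (0.73), and was at -0.09 with the muscle and liver covariates. Without the libraries with muscle transcripts the median of the list was 0.02, with 1 gene higher and 2 lower. Pck1 was then at 1.25 and Pnpla2 at 0.34.

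Among 16 adipokines, 3 were higher and 4 lower. Nrg4 and Cfd are described above. Lep, which encodes the satiety hormone leptin, had 6468, 5749 and 6948 CPM in WT and 4617, 4124 and 4457 in Homo KO (-0.54, edgeR adjusted p = 0.257), and its groups did not overlap. Metrnl, which encodes meteorin-like, had 15.2, 17.6 and 13.6 CPM in WT and 9.01, 6.80 and 7.19 in Homo KO (-1.01), and C1qtnf6, a relative of adiponectin, 12.5, 16.3 and 13.2 CPM in WT and 8.83, 7.46 and 8.71 in Homo KO (-0.74). The median of the list was 0.14, and -0.07 without the libraries with muscle transcripts.

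Of 15 genes of fatty acid synthesis and desaturation, 3 were higher and 2 lower, with a median of 0.03. The median was -0.09, with 0 higher and 4 lower, without the libraries with muscle transcripts, and 0.50, with 2 higher and 0 lower, without those with liver transcripts. Scd1, the desaturase that makes oleate, had 28574, 33150.2 and 51184 CPM in WT and 39484, 77474 and 85578 in Homo KO (0.84) and Thrsp, a lipogenic nuclear protein, 137, 171 and 239 CPM in WT and 204, 307 and 385 in Homo KO (0.71). In both, Homo KO 1 overlapped with WT. Fads2, a desaturase of polyunsaturated fatty acids, was at -1.06, also with overlap, and at -0.14 without the libraries with liver transcripts. Of 24 genes of cholesterol synthesis and uptake, 22 had a negative log2 fold change. There 9 were lower and 1 higher at an unadjusted p under 0.05, with a median of -0.35. In 11 every Homo KO library lay below every WT library, against 11.2% over all genes. DESeq2 called 5 of the 24 lower, against 1.9% of all genes to which it gave an adjusted p. Fdps, which makes farnesyl diphosphate, had 30.4, 42.4 and 38.5 CPM in WT and 18.1, 24.4 and 21.1 in Homo KO (-0.81, edgeR adjusted p = 0.154), and Lss, which closes the sterol rings, 59.4, 75.6 and 60.1 CPM in WT and 39.5, 41.2 and 43.0 in Homo KO (-0.66). Hmgcs1, an early enzyme of the pathway with the highest TPM of the list, overlapped, at 572, 469 and 606 CPM in WT and 475, 508 and 355 in Homo KO (-0.30). The median stayed between -0.58 and -0.22 under the alternatives, and without the libraries with liver transcripts 5 genes were lower. TCACNCCAC, the sterol regulatory element, was found in 1 of 16 promoters of the list that RefSeq tabulates and in 1.37% of tested promoters.

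Of 16 insulin signalling genes, 6 were higher, 0 lower, and the median was 0.20. With the muscle and liver covariates the median was -0.05, with 0 higher and 1 lower. Pde3b, the phosphodiesterase through which insulin restrains lipolysis, had 587, 388 and 691 CPM in WT and 796, 1048 and 1095 in Homo KO (0.82, edgeR adjusted p = 0.184). The insulin receptor substrates Irs1 and Irs2 had 76.6, 74.1 and 132 CPM in WT and 150.2, 164 and 167 in Homo KO (0.77) and 61.2, 54.2 and 69.9 CPM in WT and 76.0, 82.7 and 113 in Homo KO (0.55). With the muscle and liver covariates Pde3b was at 0.22, and without the libraries with muscle transcripts Irs1 was at 0.28. In all 3 the groups did not overlap, WT 2 was the lowest WT library, and WT 2 holds both muscle and liver transcripts. Of the 16, 0 were higher at an unadjusted p under 0.05 without the libraries with muscle transcripts, with a median of 0.15.

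Mitochondrially encoded transcripts, which specify subunits of the respiratory chain, had positive log2 fold changes for 13 of 13 genes and a median of 0.51. At an unadjusted p under 0.05, 7 were higher. In 8 every Homo KO library lay above every WT library, against 10.9% over all genes. mt-Nd5, of complex I, had 3239, 2173 and 3323 CPM in WT and 3813, 4769.7 and 4601 in Homo KO (0.59, edgeR adjusted p = 0.218). mt-Co1, of complex IV and the most abundant, had 14502, 11884 and 15077 CPM in WT and 16100.2, 20018 and 18566 in Homo KO (0.40). mt-Nd4 and mt-Atp8 were at 0.86 and 0.80, and at -0.03 and -0.04 with the muscle and liver covariates. WT 2 was the lowest library for all 4 of these genes. The median was 0.30 without the libraries with muscle transcripts, 0.33 without those with liver transcripts and -0.06 with the 2 tissue scores as covariates.

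Thermogenic genes, which mark heat-producing fat cells, went both ways, with 3 of 18 higher and 5 lower. Prdm16, a transcription factor of beige and brown fat cells, had 30.9, 31.6 and 28.3 CPM in WT and 40.4, 42.1 and 39.9 in Homo KO (0.43, edgeR adjusted p = 0.162). Ppargc1a, whose protein coactivates the genes of mitochondria, had 14.4, 11.1 and 10.1 CPM in WT and 17.7, 22.3 and 26.9 in Homo KO (0.91). Dio2, which activates thyroid hormone, had 4.72, 8.14 and 2.85 CPM in WT and 1.54, 2.33 and 2.18 in Homo KO (-1.37). Groups did not overlap in these 3 genes. The sign of each was kept under every alternative run, which leaving out libraries could hardly have changed. Dio2 was at -0.50 without the libraries with muscle transcripts. The median of the list was -0.39, but 0.13 without the libraries with muscle transcripts and 0.99 with the covariates. Its summed level was 392.7, 761 and 335 CPM in WT and 347, 419 and 402 in Homo KO. WT 2, which holds muscle and liver transcripts, thus stood apart, while WT 1, which also holds muscle transcripts, did not.

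Genes of arginine and nitric oxide metabolism were lower or overlapped. Of 16 tested, 6 were lower and 0 higher at an unadjusted p under 0.05. In 8 every Homo KO library lay below every WT library, against 11.2% over all genes. The median was -0.30, and between -0.43 and -0.21 under the alternatives. Ass1 led the list. Ddah1, which degrades an endogenous inhibitor of nitric oxide synthase, had 10.3, 12.4 and 15.8 CPM in WT and 7.20, 5.23 and 4.03 in Homo KO (-1.22, edgeR adjusted p = 0.188). Nos3, the endothelial nitric oxide synthase, chosen after its values were seen, had 54.7, 58.3 and 67.4 CPM in WT and 51.3, 54.2 and 43.6 in Homo KO (-0.28, edgeR adjusted p = 0.406). Arg1, the arginase of liver, had 0.710, 13.4 and 19.2 CPM in WT and 0.634, 0.238 and 0.205 in Homo KO (-4.94), and -0.98 without the libraries with liver transcripts. Oat, which converts ornithine, overlapped at -0.14. Of the 16, 2 were lower without the libraries with liver transcripts.

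Most extracellular matrix genes had a negative log2 fold change. Of 37 matrix proteins and matrix enzymes, 33 had one, 12 were lower and 1 higher at an unadjusted p under 0.05. In 24 of them every Homo KO library lay below every WT library, against 11.2% over all genes. The median was -0.40, and it stayed between -0.44 and -0.27 under the alternatives. Summed over the list, the level was 22475, 26227 and 25021 CPM in WT and 19602, 18478 and 18937 in Homo KO. Col12a1, a collagen that binds the surface of fibrils, had 189, 179.6 and 107 CPM in WT and 36.01, 41.9 and 26.7 in Homo KO (-2.19, edgeR adjusted p = 0.161). Sparc, a collagen-binding glycoprotein and an abundant member, had 5826, 5650.2 and 6915 CPM in WT and 5630.4, 5221 and 5405 in Homo KO (-0.18), so its groups were separate by a small margin only.

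Progenitor and fibroblast markers were more often lower than higher, with 4 of 16 lower, 1 higher and a median of -0.32. Beside Dpp4, Pi16, a marker of the same progenitors, had 20.8, 55.1 and 59.2 CPM in WT and 11.3, 8.65 and 14.8 in Homo KO (-1.95, edgeR adjusted p = 0.154). F3, which encodes tissue factor, the starter of blood coagulation, was the higher one, at 12.6, 13.0 and 19.9 CPM in WT and 28.8, 29.7 and 35.3 in Homo KO (1.04, edgeR adjusted p = 0.154). Summed over the list the level was 1366, 1496 and 1455 CPM in WT and 1220.1, 1197 and 1211 in Homo KO. When the libraries with liver transcripts were left out, the median was -0.14, with 1 gene lower, and Dpp4 and Pi16 were at -0.78 and -0.84.

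Among cell cycle genes, 16 of 27 were lower and 0 higher at an unadjusted p under 0.05. DESeq2 called 10 of the 27 lower, against 1.9% of all genes to which it gave an adjusted p, and the median was -0.81. Aurkb, a kinase of chromosome segregation, had 4.43, 4.97 and 3.89 CPM in WT and 2.22, 1.90 and 1.64 in Homo KO (-1.20, edgeR adjusted p = 0.154). The mitotic motor genes Cenpe and Kif11 had 15.6, 17.2 and 11.1 CPM in WT and 7.97, 6.23 and 6.28 in Homo KO (-1.10) and 8.14, 7.37 and 5.99 CPM in WT and 3.35, 3.61 and 2.38 in Homo KO (-1.20). In all 3 genes the groups did not overlap, and all 3 are at low levels in this tissue. Summed over the list, the level was 441, 458 and 336 CPM in WT and 294, 261 and 249 in Homo KO, and WT 3, which holds few muscle transcripts, lay closest to Homo KO. The median was -0.40 without the libraries with muscle transcripts, with 9 genes lower. Promoters of such genes often carry TTTGAA, the cell cycle genes homology region, bound by the complexes that time mitotic transcription. It was found on either strand in 11 of the 22 cell cycle promoters tabulated, against 15.8% of tested promoters. The window of Kif11 (chr19:37376132-37376431, plus strand, GRCm38.p6) is shown with its 1 match in capitals, which lies on the minus strand.
Kif11: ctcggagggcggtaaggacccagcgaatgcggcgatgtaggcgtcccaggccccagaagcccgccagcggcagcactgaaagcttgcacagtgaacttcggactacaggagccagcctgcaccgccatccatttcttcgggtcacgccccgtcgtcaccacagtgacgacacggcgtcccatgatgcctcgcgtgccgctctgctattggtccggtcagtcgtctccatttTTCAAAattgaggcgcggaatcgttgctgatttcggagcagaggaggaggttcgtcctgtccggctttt
The window of Cenpe holds none, and a match is not evidence of binding.

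Of 26 chaperones of the cytosol and endoplasmic reticulum, 23 had a negative log2 fold change, 6 were lower and 0 higher at an unadjusted p under 0.05, with a median of -0.23 that stayed between -0.25 and -0.18 under the alternatives. Hsph1, a heat shock protein that assists HSP70, had 60.6, 61.0 and 59.5 CPM in WT and 47.0, 44.3 and 39.4 in Homo KO (-0.47, edgeR adjusted p = 0.162). Hspb1, a small heat shock protein, had 19.2, 22.4 and 24.0 CPM in WT and 16.1, 15.5 and 15.3 in Homo KO (-0.48). Sdf2l1, of the endoplasmic reticulum, was at -0.69, and Calr, which encodes the lectin chaperone calreticulin, at -0.30.

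Of 19 clock genes, 3 were higher and 2 lower, with a median of 0.28. Nr1d1, which encodes the repressor REV-ERB alpha, had 57.0, 74.7 and 71.7 CPM in WT and 94.6, 127 and 159 in Homo KO (0.90, edgeR adjusted p = 0.185), and Ciart, another clock repressor, 2.46, 2.57 and 1.57 CPM in WT and 4.67, 3.56 and 4.93 in Homo KO (0.997). Nfil3, a repressor of D-box genes, had 4.34, 5.81 and 3.85 CPM in WT and 2.40, 1.57 and 1.36 in Homo KO (-1.39), and Tef, an activator of the same genes, was at 0.28. With the muscle and liver covariates Nfil3 was at -0.70, and with an offset for transcript length Ciart was at 0.20. Clock transcripts vary over the day, and the sources used here do not give the time of sampling. Of 16 tested imprinted genes, 3 were higher and 1 lower, with a median of 0.07, so the list that holds Nnat did not lean to a side. Plagl1, an imprinted zinc finger gene, was at 0.67 but at 0.07 with the muscle and liver covariates.

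Immune genes were mixed. Of 22 macrophage markers, 8 were lower and 0 higher at an unadjusted p under 0.05, and 21 had a negative log2 fold change, with a median of -0.54. C1qa, a chain of complement C1q that resident macrophages make, had 58.3, 101 and 62.4 CPM in WT and 46.7, 38.3 and 36.2 in Homo KO (-0.87, edgeR adjusted p = 0.174), and C1qc was at -0.62. With the muscle and liver covariates C1qa was at -0.26, and without the libraries with muscle transcripts C1qc was at -0.22. Lyve1, a hyaluronan receptor of lymphatic vessels and some macrophages, had 12.9, 16.9 and 22.2 CPM in WT and 9.42, 7.27 and 11.0 in Homo KO (-0.91), and Lgals3, which encodes galectin 3, overlapped at -0.72. The summed level was 1324, 1457 and 1038 CPM in WT and 1110.3, 909 and 759 in Homo KO, and these sums overlap. Without the libraries with muscle transcripts the median was -0.19, with 3 genes lower.

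Lymphocyte markers gave opposite signs by gene and in sum. Of 22, 5 were higher and 0 lower, with a median of 0.53 that was -0.14 with the muscle and liver covariates, where 0 were higher and 0 lower. Cd79a, of the B cell receptor, had 0.543, 0.481 and 0.214 CPM in WT and 1.09, 2.09 and 3.08 in Homo KO (2.34), and Cr2, a complement receptor of B cells, 6.47, 4.29 and 5.46 CPM in WT and 9.56, 8.56 and 10.7 in Homo KO (0.83). These are rare transcripts here, and with the covariates Cd79a was at 1.27 and Cr2 at 0.24. Ighm, the immunoglobulin heavy chain gene that made up most of the list's counts, had 548, 479.9 and 599 CPM in WT and 317, 349 and 323 in Homo KO (-0.72, edgeR adjusted p = 0.366). Summed, the list was therefore lower, at 616, 546 and 654 CPM in WT and 388, 417 and 412 in Homo KO. When the libraries with liver transcripts were left out, 0 of the 22 were higher at an unadjusted p under 0.05 and the median was 0.20.

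Of 17 tested genes of inflammation and the acute phase, 1 was higher and 3 lower at an unadjusted p under 0.05. Hp, which encodes the haemoglobin scavenger haptoglobin and is made by both adipocytes and liver, had 1593, 1849 and 2010.3 CPM in WT and 753, 644 and 596 in Homo KO (-1.45, edgeR adjusted p = 0.154). WT 1, with few liver transcripts, was also far above Homo KO, and Hp was at -1.26 without the libraries with liver transcripts. Lcn2, which encodes the iron-carrier-binding protein lipocalin 2, had 2.55, 2.77 and 2.42 CPM in WT and 1.31, 0.998 and 0.534 in Homo KO (-1.44), and the chemokine gene Ccl5 1.21, 0.762 and 0.820 CPM in WT and 1.81, 2.28 and 2.42 in Homo KO (1.22), or 0.34 with the muscle and liver covariates. The median of the list, -0.26, was 0.01 without the libraries with muscle transcripts.

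Vessel genes, closest to the cell type in which AGO1 was targeted, had a median near 0 as a group. Of 20 endothelial markers, 1 was higher and 0 lower at an unadjusted p under 0.05, with a median of 0.08 that was -0.14 without Homo KO 1 and 0.47 with the muscle and liver covariates. Of the 20, 12 had a positive and 8 a negative log2 fold change. In 2 every Homo KO library lay above every WT library and in 1 below, against 10.9% and 11.2% over all genes. The 1 below was Nos3, described above, at -0.28. Pecam1, the adhesion molecule of endothelial junctions, had 196, 221 and 175 CPM in WT and 244, 216 and 173 in Homo KO (0.10, SE 0.142). Kdr, the main VEGF receptor, had 141, 169 and 133 CPM in WT and 222, 177 and 155 in Homo KO (0.33), and both overlapped. Ptprb, a phosphatase that restrains the angiopoietin receptor, had 429, 429.5 and 388 CPM in WT and 694, 537 and 437 in Homo KO (0.42, edgeR adjusted p = 0.252), and Erg, an endothelial transcription factor, 4.72, 5.17 and 2.71 CPM in WT and 7.75, 6.13 and 5.30 in Homo KO (0.61), both without overlap. For both of these and for Kdr, Homo KO 1 was the highest library. Erg was at 1.24 without the libraries with muscle transcripts.

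Of 26 angiogenic ligands, receptors and inhibitors, 3 were higher and 2 lower, with a median of 0.09 that was -0.06 without Homo KO 1 and 0.32 with the muscle and liver covariates. Among ligands, Vegfb, linked to fatty acid uptake by endothelium, had 78.1, 69.7 and 88.9 CPM in WT and 103, 128 and 139 in Homo KO (0.64, edgeR adjusted p = 0.161). Angpt1, which stabilises vessels, had 16.7, 11.2 and 20.5 CPM in WT and 25.0, 34.1 and 48.8 in Homo KO (1.16), and was at 0.52 with the muscle and liver covariates. Vegfc, the growth factor of lymphatic vessels, had 6.39, 6.73 and 5.35 CPM in WT and 3.44, 3.18 and 3.08 in Homo KO (-0.93). Vegfa, the principal angiogenic factor, had 195, 212 and 196 CPM in WT and 229, 224 and 238 in Homo KO (0.20, edgeR adjusted p = 0.541). Of these 4 ligands, Vegfb, Angpt1 and Vegfa were higher and Vegfc lower in every Homo KO library than in every WT library. In 4 of the 26 genes every Homo KO library lay above every WT library and in 2 below. Over all genes the shares were 10.9% and 11.2%, so the list lay near them. Of 12 mural and smooth muscle markers, 1 was higher and 2 lower, with a median of -0.21 that was 0.05 with the covariates. The pericyte genes Rgs5 and Kcnj8 were at 0.31 and -0.58, or at 0.13 and -0.03 with the covariates. Mcam, an adhesion molecule of vessel walls, overlapped at -0.19.

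Markers of tissues other than fat were read as a check. All 18 skeletal muscle genes had negative log2 fold changes, with a median of -5.42 and 17 lower at an unadjusted p under 0.05. The myosin gene Myh4 had 5098, 4180.2 and 17.8 CPM in WT and 91.8, 48.8 and 6.98 in Homo KO (-5.98), and Ckm, the muscle creatine kinase, was at -6.26. WT 3 overlapped with Homo KO in both. Without the libraries with muscle transcripts the median of the list was 1.21. The liver list had a median of -4.54, and 2.14 without the libraries with liver transcripts. Of 9 blood genes, 4 were lower, among them the haemoglobin gene Hbb-bt, at 11.4, 13.5 and 15.0 CPM in WT and 2.13, 3.76 and 9.24 in Homo KO (-1.39, edgeR adjusted p = 0.212). Hbb-bt was at -2.16 without Homo KO 3. The summed blood level was 295, 315 and 282 CPM in WT and 86.4, 171 and 229 in Homo KO. Of 13 mammary epithelium genes 5 were tested and of 10 skin genes 4, with at most 33.0 CPM of the first and 12.3 CPM of the second list in a library. Of 10 nerve and Schwann cell genes, 0 were higher and 1 lower. The part that muscle, liver and blood transcripts have in the differences of other genes was not tested beyond the values given beside them.

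Homo KO was also compared directly with Hete KO, which asks whether loss of both alleles differs from loss of 1. Of 17968 genes, edgeR called 0 (0%) in either direction, with a smallest adjusted p of 0.899, while 978 had an unadjusted p under 0.05 and DESeq2 called 2. For the 23 leading genes the log2 fold change of Homo KO minus Hete KO lay between -1.51 and 0.94, with adjusted p by edgeR between 0.899 and 0.999. Ass1 had 6.86, 2.40 and 5.83 CPM in Hete KO, a range that includes the Homo KO values. Nnat had 430.2, 649 and 524 CPM in Hete KO, also spanning most of the Homo KO range. Mt2 had 6.16, 10.2 and 13.7 CPM in Hete KO, and Tmem132b 1.71, 4.38 and 1.12, so that 2 Hete KO libraries lay between Homo KO and WT for Mt2, and all 3 did for Tmem132b. Hapln4 was lower in Hete KO than in Homo KO, with 0.705, 0.464 and 0.583 CPM. Both knockout groups are set against the same WT libraries, so that their differences from WT are not independent, and values that miss the threshold do not show that the groups are alike.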

How the data were processed

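The submitters deposited 1 file per library with 113193 transcripts. Per the file headers, they give estimated counts per transcript, fractional and not normalized, and TPM, which the authors scaled to effective length and to each library's total. The submitters' processing notes name mm10, and the sources used here do not give the quantifier, trimming or use of strand. Replicates were not pooled.

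Estimated counts were summed to genes with GENCODE M21 by transcript identifier, which matched 111362 transcripts (98.38%), and rounded. The remaining 1831 transcripts stayed out of library sizes and tests. Genes that edgeR's filterByExpr kept (17968) were normalized by TMM and tested with edgeR's quasi-likelihood test in 1 fit of all 9 libraries, with 6 residual degrees of freedom, a prior count of 0.125 and Benjamini-Hochberg adjustment at 0.05. The test was tried first on simulated data with a smaller spread between libraries than here. That trial therefore does not show how many differences the test can find in these data. Depth lets most genes be counted closely, and the spread between libraries (common coefficient of biological variation 0.2922) and 3 libraries a group limit the precision. R 4.3.3, edgeR 4.0.16, limma 3.58.1, DESeq2 1.42.0, Python 3.11.15, pandas 2.3.3, numpy 2.4.6 and matplotlib 3.10.9 were used.

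Genes were named by rule: Ago1, the 12 higher and 12 lower protein-coding genes with the smallest p among those with at least 1 CPM and no overlap of groups, the 6 higher and 6 lower with the largest fold under an unadjusted p of 0.05 and at least 1 CPM on average in each group, and up to 4 of each list. Some genes that the rule picks are not reported here. Outside the rule are 9 genes: Mt1, Ces1d, Ces1f, C2, Ago2, Ago3, Ago4, Nos3 and Adipoq. The comparison, the lists and the alternatives were chosen with earlier results of these data known. Alternatives were DESeq2, other normalizations and filters, the 6 libraries only, a replicate block, an offset for transcript length, limma on log2 TPM (pseudocounts 0.5 and 0.1), a robust fit, and leaving out each library. Chosen after seeing the data were leaving out the libraries with over 1% muscle transcripts (WT 1, WT 2 and Hete KO 2) or over 100.0 CPM of Alb (WT 2 and WT 3), and muscle and liver scores (log2 shares of counts) as covariates. Near-identical gene copies may share counts.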

Additional observations from a re-analysis of the deposited data

How the results depend on the processing

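By edgeR, 0 genes passed in either direction, and this held with RLE or upper-quartile scaling, a stricter filter, a length offset, limma on log2 TPM, a robust fit and the covariates. DESeq2 called 271 higher and 362 lower, with 71 of the 112 named genes, and 2 genes between Homo KO and Hete KO. Without a filter on low counts edgeR called 1 gene lower, and with only the WT and Homo KO libraries 7 lower. Leaving out 1 library at a time gave 0 to 19 higher and 0 to 134 lower, with 19 and 134 without WT 1, 1 lower without WT 2 and 2 lower without Hete KO 2, and 0 in the comparison with Hete KO. Without the libraries with muscle transcripts there were 3 higher and 38 lower, and without those with liver transcripts 1 and 1, each with 1 WT library left. The cause of these differences was not tested. A replicate block gave 0 higher and 0 lower. Same-numbered WT and Homo KO libraries correlated in their deviations at 0.0799, 0.105 and 0.165, so the numbers were not taken as pairs, and not every library correlated best with its own number.

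Few named genes turned in direction. Ago3 was at -0.45 with the length offset, -0.40 and -0.41 by limma with pseudocounts of 0.5 and 0.1, -0.06 (without WT 2) to 0.19 (without WT 1) with 1 library left out, -0.01 without the muscle libraries, -0.11 without the liver libraries and -0.25 with the covariates. Ago2 was at 0.14 with the length offset and 0.16 by limma with either pseudocount. Pecam1 ranged from -0.01 without Homo KO 1 to 0.23 without Homo KO 3. Without the muscle libraries Ckm was at 0.83, Myh4 at 1.46 and Adipoq at -0.08, and without the liver libraries Alb was at 2.19. With the covariates Alb was at 1.40, Myh4 at 0.12, mt-Atp8 at -0.04, mt-Nd4 at -0.03 and Car3 at -0.09. The 3 libraries a group, the muscle and liver transcripts in WT, and the Ago1 level, which checks the genotype weakly, limit what these data can show.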

Other observations

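Families of genes chosen after their values were seen are given as a description, with no test. Of 348 tested zinc finger genes whose symbol starts with Zfp, many of them DNA-binding proteins that silence repeats or genes, 261 had a positive log2 fold change, with a median of 0.22. In 96 of them (27.6%) every Homo KO library lay above every WT library, and in 9 (2.59%) below, against 10.9% above and 11.2% below over all tested genes. Their summed level was 7787, 6902 and 7296 CPM in WT and 8096, 8382 and 8286 in Homo KO, so the groups did not overlap. The median lay between 0.12 and 0.29 under the alternatives, the lowest without the libraries with liver transcripts. DESeq2 called 9 higher and 1 lower, against 1.42% higher and 1.9% lower over all genes to which it gave an adjusted p.

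Histone genes whose symbol starts with Hist, which package newly copied DNA, went the other way. Of 56 tested, 49 had a negative log2 fold change, with a median of -0.80 and a range of -0.92 to -0.60 under the alternatives. In 25 (44.6%, against 11.2% over all genes) every Homo KO library lay below every WT library, and in 0 above. Summed, they had 510.1, 552.8 and 547.9 CPM in WT and 401.9, 367 and 378.6 in Homo KO, and near-identical copies may share counts within the sum. The 529 olfactory receptor genes that passed the filter, which encode odour receptors of the nose, had a median of 0.11, with 34 (6.43%) above and 16 (3.02%) below without overlap, both smaller shares than the 10.9% and 11.2% over all genes. That median was -0.05 without the libraries with liver transcripts. These are rare transcripts, with a median of 1.82 for their mean CPM over the 6 libraries. The part of low counts in the smaller shares was not tested.

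The share of tested genes whose groups did not overlap, in either direction, was 20.2 to 26.3% on the autosomes and the X chromosome and 61.5% (8 of 13) among mitochondrially encoded genes. The 23 leading genes included 5 on chromosome 2, among them Ass1 and Nnat. Chromosome 2 holds 1482 of the 17968 tested genes, and groups did not overlap in 20.9% of these. Whether the 5 exceed that background was not tested.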
